A study of Mus musculus with 6 samples.

Results

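Inhibitory checkpoint receptors are surface proteins of lymphocytes that dampen activation once they meet their ligands. The 8 genes described here are Pdcd1, Ctla4, Lag3, Havcr2, Tigit, Cd160, Btla and Cd244a, chosen by name as the rows with these symbols in the authors' full table, which lists 17744 genes. All 8 are listed, and all 8 are among the 10655 genes tested, so no member was lost to the filter on low values (FPKM of at least 1 in at least 3 libraries). FPKM scales the fragments counted on a gene by its transcript length and the library size, so levels can be set side by side between genes.

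The libraries are RNA-seq of CD8 T cells sorted from mouse spleen by the surface markers CD45, CD3 and CD8a, 3 labelled as control and 3 labelled as fus irradiation, that is focused ultrasound, a beam of sound directed at a small volume of tissue. The control libraries carry the genotype label wt, and the genotype field of the others repeats the treatment. Strain, age, ultrasound dose and the interval before sorting are not given in the labels used here, nor whether each library came from its own animal, so p-values measure the spread between these libraries only, which may be technical.

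PD-1 (Pdcd1), CTLA-4 (Ctla4), BTLA (Btla) and TIGIT (Tigit) belong to the immunoglobulin superfamily and act through phosphatases or by competing with stimulatory receptors for the same ligand. T cell receptor signals induce several of these genes, and sustained high expression is known from exhausted CD8 T cells in chronic infection and tumours. TIM-3 (Havcr2) and 2B4 (Cd244a) are also known from cells other than T cells: TIM-3 from dendritic cells and macrophages, 2B4 from natural killer (NK) cells and monocytes.

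Depth and purity bear on every value below. Each library holds 35024080 to 38113103 reads, recovered from the deposited values. The members rest on 250 to 6642 reads per library, and at 250 reads counting error is 6.32%. Of 8 markers of CD8 T cells, 7 are listed and present in all libraries. Their summed levels were 2398 to 2486 FPKM in controls and lower, at 2081 to 2358, in ultrasound libraries. The list includes genes of CD45 and CD3, which other cells share, so its sum is no measure of purity. Cd4, the coreceptor of helper T cells, was also present, at 41.5 to 59.8 FPKM in controls and 55.8 to 74.6 in ultrasound libraries. Ultrasound 2 and ultrasound 3 stand apart from the other 4 libraries: mitochondrial genes took 0.954% and 0.937% of their reads, against 2.05% to 2.70% in controls and 2.19% in ultrasound 1. Differences of ultrasound 1 alone from the controls are therefore also given, as values of 1 library with no test, beside the comparison without ultrasound 1. These differences equal the ultrasound effect in a fit with a term for ultrasound 2 and 3, which takes its spread from the other 5 libraries and so holds no measure of how a library like ultrasound 1 varies. The limma test called 8.11% of all genes tested at the threshold of 0.05 on the adjusted p. Those higher after ultrasound were 6.55% and those lower 1.56%, whereas median-of-ratios size factors gave 2.75% and 1.35%, 4.1% in all. The fit with the term called 1.41%, and 0 of the 8 receptors (2 at an unadjusted p under 0.05).

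The promoter windows of 4 members are shown first, because the results turn on these genes: Havcr2 and Cd244a, which both rose, Ctla4, which was far below the controls in 2 of the 3 ultrasound libraries, and Pdcd1, which varied least of the 8 over the libraries. Each is the 250 bases before the RefSeq start on GRCm38.p6, 5′ to 3′ on the gene's strand. Capitals mark matches on either strand to 3 motifs chosen after the results were known. They are GGAAA (the core of NFAT sites), TGANTCA (a loose form of the AP-1 site) and GAGGAA (the core of PU.1 sites). N stands for any base, whereas the usual AP-1 site has C or G there. NFAT and AP-1 are factors of T cell receptor signalling, and PU.1 is a factor of myeloid and B cells.
Havcr2, chr11:46454681-46454930, plus strand: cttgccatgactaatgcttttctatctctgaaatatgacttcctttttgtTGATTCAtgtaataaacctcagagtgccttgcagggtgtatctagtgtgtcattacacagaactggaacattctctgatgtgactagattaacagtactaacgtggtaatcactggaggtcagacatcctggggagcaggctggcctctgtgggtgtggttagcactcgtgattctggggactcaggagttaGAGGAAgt
Cd244a, chr1:171558943-171559192, plus strand: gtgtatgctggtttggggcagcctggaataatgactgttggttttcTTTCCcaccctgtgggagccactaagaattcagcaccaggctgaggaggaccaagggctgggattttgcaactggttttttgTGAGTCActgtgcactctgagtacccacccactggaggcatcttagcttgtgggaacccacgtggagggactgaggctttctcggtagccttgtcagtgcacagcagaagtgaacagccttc
Ctla4, chr1:60908775-60909024, plus strand: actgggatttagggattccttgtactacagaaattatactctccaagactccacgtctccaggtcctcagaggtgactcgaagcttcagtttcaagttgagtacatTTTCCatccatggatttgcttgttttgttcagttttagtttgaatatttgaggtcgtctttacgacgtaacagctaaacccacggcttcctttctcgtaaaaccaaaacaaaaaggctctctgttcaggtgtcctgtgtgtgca
Pdcd1, chr1:94052554-94052803, minus strand: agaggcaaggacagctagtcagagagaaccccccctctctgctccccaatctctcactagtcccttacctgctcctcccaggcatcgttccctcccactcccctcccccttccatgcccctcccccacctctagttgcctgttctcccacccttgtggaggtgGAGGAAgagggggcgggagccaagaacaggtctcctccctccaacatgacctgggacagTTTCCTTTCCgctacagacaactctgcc

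Windows were matched for 7 of the 8 members, with 2 for Cd160 and none used here for Lag3. The RefSeq start of Ctla4 lies inside the longer GENCODE gene model whose bounds are given with its values. The letters TGANTCA occur 1 time each in the windows of Havcr2 and Cd244a and in no window of the other members. They occur in 6.75% of 32841 windows of all genes. The match reads TGAGTCA in Cd244a but TGATTCA in Havcr2, which lacks the C or G of the usual AP-1 site. The NFAT letters occur in the windows of Cd244a, Ctla4, Pdcd1 and Tigit and in 1 of the 2 of Cd160, and in 55.6% of all windows. The PU.1 letters occur in the windows of Havcr2, Pdcd1 and Btla and in the other Cd160 window, and in 23.3% of all windows. In Btla they occur 2 times, which 3.54% of all windows reach. A GAGGAAA run would match both GAGGAA and GGAAA. These are matches of letters, not measured binding.

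Between the groups, Havcr2 and Cd244a rose in ultrasound libraries by limma and the other 6 members did not pass. That is 2 of 8 members, against 8.11% of all genes tested, and both were higher, against 6.55%. The median log2 change over the 8 members was -0.0012, against 0.087 over all genes tested. In the 3 ultrasound libraries 2 members lay above every control and 1, Ctla4, below every control, where 25.9% and 8.96% of all genes did. The comparison asks whether focused ultrasound changes the transcriptome of splenic CD8 T cells, as the series title states immune activation as its subject.

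**Figure D1:**
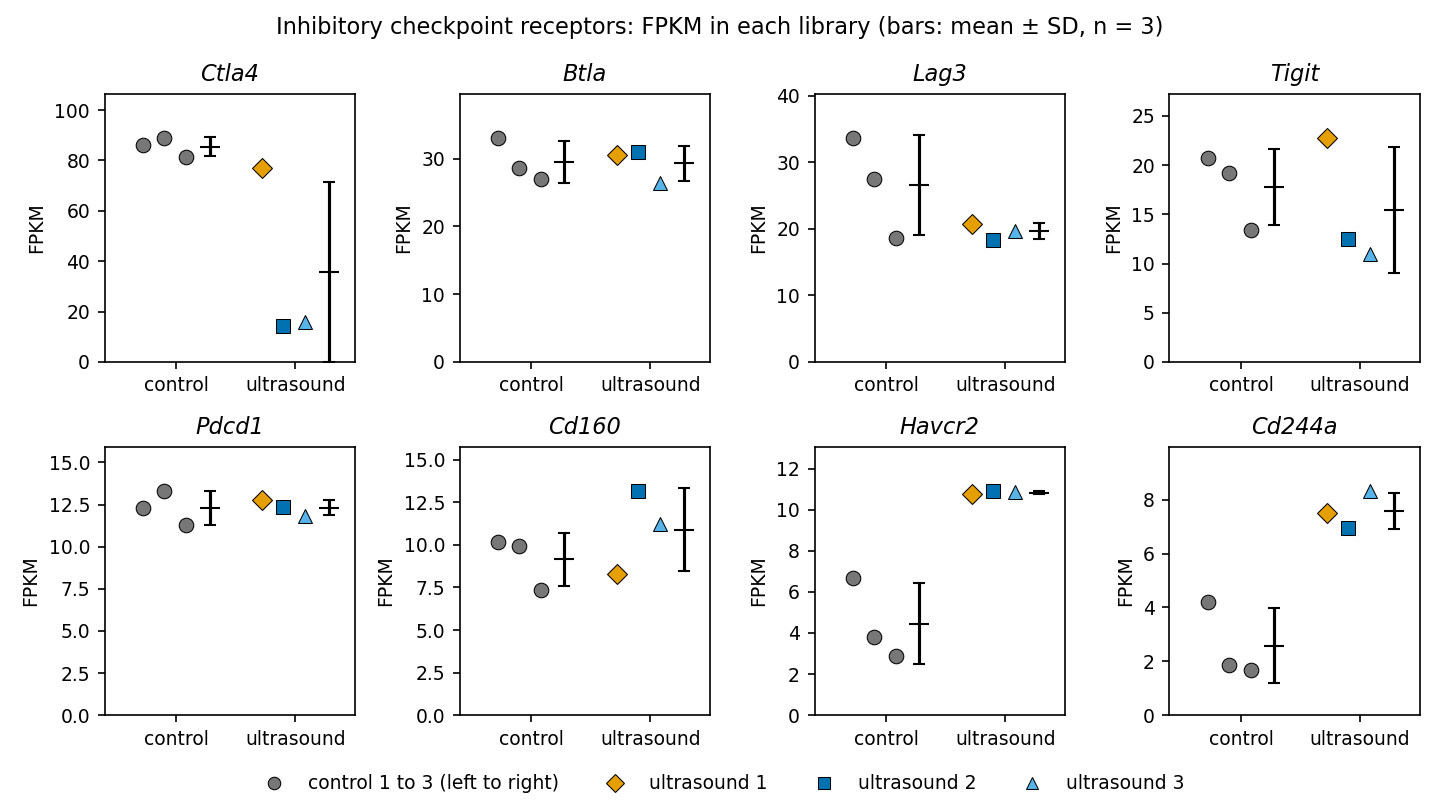
FPKM of each checkpoint receptor in each of 6 libraries, ordered by mean level, with the mean and SD of 3 libraries per group beside the points and every axis starting at 0. Havcr2 and Cd244a sit above all controls in all ultrasound libraries, Ctla4 is at 76.8 FPKM in ultrasound 1 and at 14.4 and 15.8 in ultrasound 2 and 3, and Pdcd1 stays between 11.3 and 13.3.

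Havcr2 (NCBI Gene 171285, chromosome 11, 46454935 to 46481255, GRCm38) encodes TIM-3, which restrains effector T cells. It was measured at 6.66, 3.80 and 2.87 FPKM in controls 1, 2 and 3 and at 10.7, 10.9 and 10.9 in ultrasound 1, 2 and 3. The groups do not overlap, the ultrasound libraries are nearly identical, and the spread lies among the controls, where control 1 is highest. Its mean went from 4.45 ± 1.98 to 10.8 ± 0.0717 FPKM (SD, n = 3 each), a log2 change of 1.18 on the log2(FPKM + 1) scale (standard error 0.238, limma adjusted p 0.0380). The 95% interval of the log2 change runs from 0.61 to 1.74. Ultrasound 1 alone differed from the control mean by 1.17, and the fit without ultrasound 1 gave 1.18 (limma adjusted p 0.0187). That fit called 53.7% of all genes tested. Its unadjusted limma p for Havcr2 was 0.00771, higher than the 0.00177 with all 6 libraries.

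Cd244a (NCBI Gene 18106, chromosome 1, 171559193 to 171609746) encodes 2B4, a receptor of the SLAM family that binds CD48 and can activate or inhibit depending on its adaptors. Its levels were 4.19, 1.87 and 1.67 FPKM in controls 1, 2 and 3 and 7.50, 6.96 and 8.31 in ultrasound 1, 2 and 3. Again no ultrasound library overlaps the controls, and control 1 is the highest control. The mean went from 2.58 ± 1.40 to 7.59 ± 0.679 FPKM (SD, n = 3 each), a log2 change of 1.33 (standard error 0.254, limma adjusted p 0.0335) with a 95% interval from 0.72 to 1.93. For ultrasound 1 alone the difference was 1.32, and without ultrasound 1 it was 1.33 (limma adjusted p 0.0157, where 53.7% of all genes tested were called). The unadjusted limma p was 0.00614 without ultrasound 1, higher than the 0.00131 with all 6 libraries.

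The calls of Havcr2 and Cd244a depended on which libraries were in the fit. Each was lost when control 2, control 3, ultrasound 2 or ultrasound 3 was left out, settings in which limma called 0 of all genes tested (1962 to 2154 at an unadjusted p under 0.05), with log2 changes of 0.96 to 1.18 for Havcr2 and 1.15 to 1.38 for Cd244a. Each was also lost with median-of-ratios size factors, at limma adjusted p 0.0544 and 0.0512. In the authors' deposited table, which comes from DESeq2, Havcr2 has a log2 fold change of 1.16 with q 0.00376 and Cd244a 1.44 with q 0.0017, in a table where 12.3% of all 17744 genes have q under 0.05.

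Transcripts of other cell types were looked at beside these 2 genes, and the lists differed in which libraries were high. The 10 myeloid markers summed to 342 to 772 FPKM in controls and 1911 to 3384 in ultrasound libraries. Of them, 8 of 10 lay above every control in all ultrasound libraries, where 25.9% of all genes tested did. By limma 7 of 10 tested passed, all higher, where 6.55% of all genes tested were called higher. The 10 neutrophil markers summed to 575, 187 and 192 FPKM in controls 1, 2 and 3 and to 2319, 642 and 673 in ultrasound 1, 2 and 3. Of the 10, 9 lay above every control in all ultrasound libraries and 3 were called, all higher, against the same 25.9% and 6.55%. In both lists control 1 was the highest control, as it was for Havcr2 and Cd244a. That trait is not particular to them. Control 1 was also the highest control for Lag3, Tigit, Cd160 and Btla, and for the B cell, dendritic cell and erythroid sums. The 7 NK cell markers summed to 26.8 to 35.3 FPKM in controls, 29.4 in ultrasound 1 and 113 to 216 in ultrasound 2 and 3, with 1 called higher. The 10 dendritic cell markers summed to 33.5 to 66.9 FPKM in controls, 39.4 in ultrasound 1 and 105 to 116 in ultrasound 2 and 3, with 0 of 6 tested called by limma or voom (0 at an unadjusted p under 0.05). No marker of these lists was at 0 in any library. Their part in the levels of Havcr2 and Cd244a was not tested, and in bulk libraries more cells of a type and more RNA per cell cannot be told apart.

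**Figure D2:**
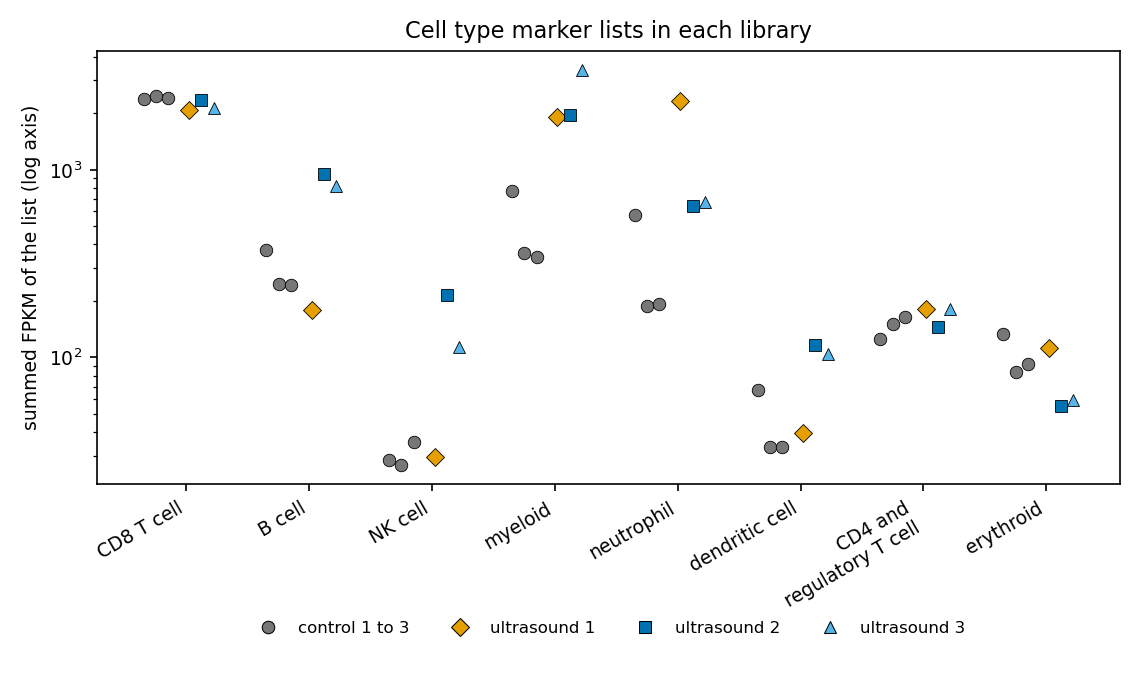
Summed FPKM, on a log axis, of 8 marker lists in each library. The myeloid sum of every ultrasound library lies above every control, at 1911 to 3384 against 342 to 772 FPKM. The B, NK and dendritic cell sums are high in ultrasound 2 and 3 only. Gzma weighs most in the NK sum, and the NK markers Klrb1c and Ncr1 lay above every control in ultrasound 1 as well.

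Ctla4 (NCBI Gene 12477, chromosome 1, 60887000 to 60915832) encodes CTLA-4, which competes with CD28 for the ligands CD80 and CD86 and is abundant in regulatory T cells. It was the highest of the 8 receptors in controls, at 86.0, 88.8 and 81.5 FPKM in controls 1, 2 and 3. Ultrasound 1 had 76.8 FPKM, just under the lowest control, whereas ultrasound 2 and 3 had 14.4 and 15.8. The difference therefore lies almost wholly in 2 libraries. The group means were 85.4 ± 3.71 and 35.6 ± 35.6 FPKM (SD, n = 3 each), with a log2 change of -1.67 (standard error 0.587, limma adjusted p 0.116) and a 95% interval from -3.06 to -0.27. Ultrasound 1 alone differed from the control mean by -0.15. Without ultrasound 1 the value was -2.43 (limma adjusted p 1.06e-05), in a fit that called 3 of 8 members and 53.7% of all genes tested.

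Regulatory T cell transcripts were looked at beside Ctla4. The 9 markers of CD4 and regulatory T cells summed to 125 to 164 FPKM in controls and to 181, 145 and 181 in ultrasound 1, 2 and 3, with 0 of 8 tested called by limma (2 at an unadjusted p under 0.05) and 1 by voom. Foxp3, the lineage factor of regulatory T cells, was at 8.78, 12.6 and 12.9 FPKM in controls and at 22.5, 12.8 and 14.8 in ultrasound 1, 2 and 3. The members did not move alike in ultrasound 2 and 3, where Ctla4 was low. Ikzf2, which encodes Helios, was at 5.65, 7.93 and 5.78 FPKM in controls and at 6.20, 3.08 and 2.92 in ultrasound 1, 2 and 3, and Icos at 24.2, 24.5 and 23.5 and at 20.05, 14.9 and 15.4 (limma adjusted p 0.164 and 0.0529; both named after their values were seen). Zbtb7b went the other way, at 9.28, 8.81 and 11.5 FPKM in controls and at 13.8, 19.4 and 28.8 in ultrasound 1, 2 and 3 (limma adjusted p 0.0656). In ultrasound 2 and 3 Il2ra, Cd40lg and Ikzf4 stayed inside the control range. Tnfrsf4 was just under that range in ultrasound 2 and inside it in ultrasound 3. In ultrasound 1 Il2ra was at 10.4 FPKM, Tnfrsf4 at 36.5 and Ikzf4 at 1.11, each above every control. Cd40lg, at 14.2 FPKM in ultrasound 1, was inside the control range. These genes were also named after their values were seen. Cd4 is the most abundant gene of the list and weighs most in its sum. Whether regulatory T cell content bears on the Ctla4 values was not tested.

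Tigit (NCBI Gene 100043314, chromosome 16, 43648867 to 43664146) encodes a receptor that competes with CD226 for the ligand PVR. It was at 20.8, 19.2 and 13.4 FPKM in controls and at 22.7, 12.5 and 10.9 in ultrasound 1, 2 and 3. The highest of all 6 libraries was ultrasound 1 and the lowest were ultrasound 2 and 3, so the groups overlap. The log2 change was -0.24 (95% interval -0.91 to 0.43, limma adjusted p 0.564). It was 0.36 for ultrasound 1 alone and -0.54 without ultrasound 1 (limma adjusted p 0.0547, where 53.7% of all genes tested were called). Leaving out each library in turn gave -0.54 to -0.046, the latter without ultrasound 3.

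Lag3 (NCBI Gene 16768, chromosome 6, 124904361 to 124911705), a receptor for MHC class II that is related to CD4, was at 33.6, 27.6 and 18.6 FPKM in controls and at 20.7, 18.4 and 19.7 in ultrasound libraries. The controls spanned a wider range than the ultrasound libraries, and control 3 lay among them. The log2 change was -0.38 (95% interval -0.86 to 0.099, limma adjusted p 0.233). It was -0.20 without control 1 and -0.61 without control 3 (limma adjusted p 0.517 and 0.144). In the authors' deposited table it is -0.56 with q 0.0962.

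Pdcd1 (NCBI Gene 18566, chromosome 1, 94038305 to 94052553) encodes PD-1, the receptor of PD-L1 and PD-L2. It was at 12.3, 13.3 and 11.3 FPKM in controls and at 12.8, 12.3 and 11.8 in ultrasound 1, 2 and 3, so every ultrasound library lay inside the control range. Over the 6 libraries its coefficient of variation was 5.67%, and 5.25% of all genes tested varied less. The 95% interval of the log2 change, -0.21 to 0.23, corresponds to folds of 0.862 to 1.17 on the FPKM + 1 scale (limma adjusted p 0.964), and its sign turned with scaling. The miss of the threshold does not show that Pdcd1 was the same in both groups, but a fold beyond these bounds lies outside the interval.

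Btla (NCBI Gene 208154, chromosome 16, 45224315 to 45257670) and Cd160 (NCBI Gene 54215, chromosome 3, 96798763 to 96829351) encode the 2 inhibitory receptors that bind HVEM. Btla, known from B cells as well as T cells, was at 33.0, 28.6 and 27.0 FPKM in controls and at 30.5, 31.0 and 26.4 in ultrasound 1, 2 and 3. The groups overlap (log2 change -0.0093, 95% interval -0.27 to 0.25, limma adjusted p 0.959). The 10 B cell markers summed to 374, 245 and 243 FPKM in controls 1, 2 and 3 and to 179, 945 and 820 in ultrasound 1, 2 and 3. Of 9 tested, 0 were called by limma or voom (0 at an unadjusted p under 0.05). Btla was highest in control 1, which also had the highest B cell sum of the controls. It was lowest in ultrasound 3, where that sum was 820 FPKM. Ultrasound 1 and 2, with the lowest and highest sums of all libraries, had Btla at 30.5 and 31.0 FPKM. The part of B cells in the Btla values was not tested.

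Cd160, known from NK cells and intestinal lymphocytes as well as CD8 T cells, was at 10.2, 9.91 and 7.37 FPKM in controls and at 8.29, 13.1 and 11.3 in ultrasound 1, 2 and 3. Of these, ultrasound 2 and 3 were above every control and ultrasound 1 was inside the control range. The log2 change was 0.22 (95% interval -0.23 to 0.66, limma adjusted p 0.435) and -0.12 for ultrasound 1 alone. It was 0.39 without ultrasound 1 (limma adjusted p 0.0564, where 53.7% of all genes tested were called). Without control 3 and without ultrasound 2 it was 0.085 and 0.083. The gene shares 68 exonic bases with Pdzk1 on the other strand, which had 0.147 FPKM or less in every library. The strand setting of the counting is not given in the sources used here.

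**Figure D3:**
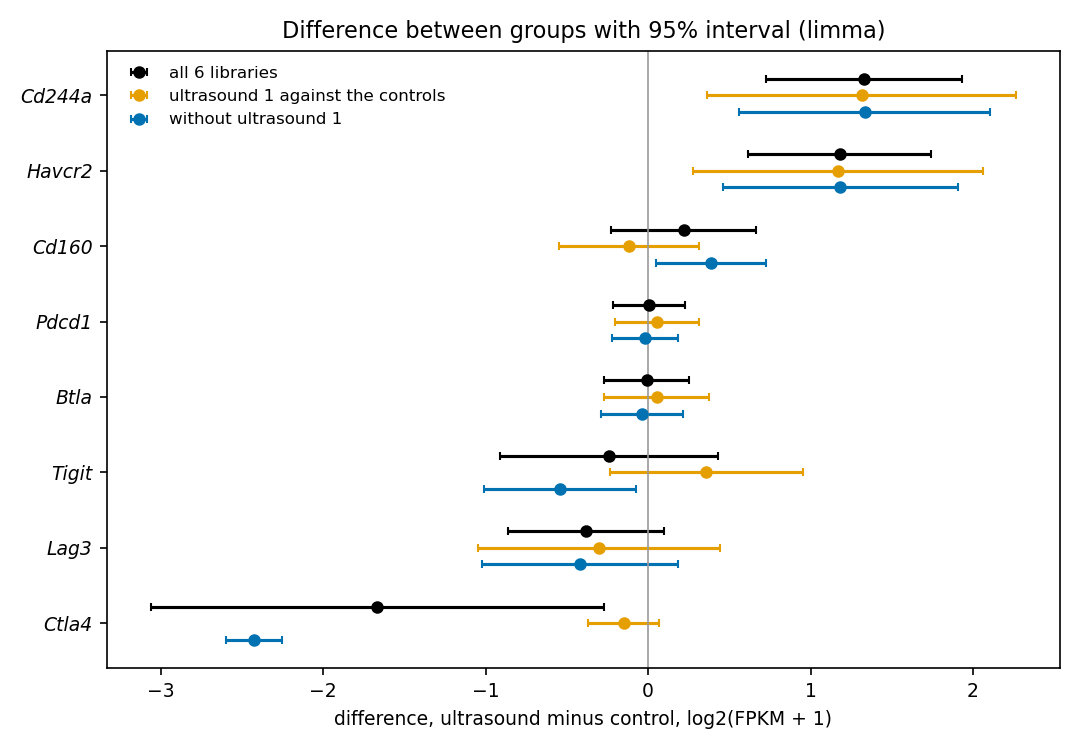
Log2 difference (ultrasound minus control, log2(FPKM + 1)) with its 95% interval for each receptor, from all 6 libraries, from ultrasound 1 against the controls, and without ultrasound 1. The interval of ultrasound 1, a single library, uses the spread of the other libraries. Havcr2 and Cd244a lie between 1.17 and 1.33 in each of the 3 fits, whereas Ctla4 moves from -0.15 to -2.43 and Tigit changes sign.

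The order of levels also differed between libraries. In controls it ran by mean from Ctla4 through Btla (29.5 ± 3.12 FPKM), Lag3 (26.6 ± 7.56), Tigit (17.8 ± 3.88), Pdcd1 (12.3 ± 1.0), Cd160 (9.16 ± 1.55) and Havcr2 to Cd244a (SD, n = 3). Neighbours whose control ranges overlap are Btla with Lag3, Lag3 with Tigit and Havcr2 with Cd244a. Ctla4 gave 41.6%, 46.0% and 49.8% of the summed FPKM of the 8 receptors in controls 1, 2 and 3 and 40.4% in ultrasound 1, but 12% and 13.7% in ultrasound 2 and 3. Btla ranked first there, with 25.9% and 22.9%. The sum over the 8 receptors was 164 to 207 FPKM in controls, 190 in ultrasound 1 and 120 and 115 in ultrasound 2 and 3.

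The receptors fell into different patterns over the 6 libraries. Havcr2 and Cd244a had the highest likeness of any pair of members (Pearson r 0.99 of log2(FPKM + 1) over 6 libraries, a description). The genes most like Cd244a among 7515 searched were Csf2rb, the shared chain of the GM-CSF receptor, at r 0.999, and Klra2 at 0.998, and 275 genes exceeded 0.95. Those most like Havcr2 were Cltb and Adam17, both at 0.995, with 215 genes over 0.95. Zfp131 and Usp45 were most like Ctla4, both at 0.999, with 620 genes over 0.95. For Pdcd1 only Usf3, at 0.984, exceeded 0.95, and Arfgef2 followed at 0.940. Tigit was closest to Rock2 (0.995) and Srrm1 (0.993), Cd160 to Adh5 (0.987) and Prkcb (0.986), Lag3 to Tspan13 (0.976) and Sri (0.970), and Btla to Acot9 (0.965) and Psat1 (0.963).

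The ligands of the 8 receptors are made by antigen-presenting and other cells as well as by T cells. Of 14 ligands in the list, 13 are in the table and 11 were tested: 2 rose, 0 fell and 9 did not pass, where 6.55% of all genes tested rose. The median log2 change was 0.22 against 0.087 over all genes. Ceacam1, a ligand of TIM-3, was at 5.48, 3.54 and 3.11 FPKM in controls and at 18.4, 18.9 and 37.3 in ultrasound libraries (log2 change 2.31, limma adjusted p 0.0297). Lgals3, galectin-3, a ligand of LAG-3 and a product of macrophages, was at 42.0, 18.1 and 19.2 FPKM in controls and at 95.3, 81.9 and 130 in ultrasound libraries (log2 change 1.99, limma adjusted p 0.0311). Both rose beside the myeloid markers given above, whose part was not tested. Cd48, the ligand of 2B4, was at 112 ± 1.42 and 145 ± 31.2 FPKM, Lgals9 at 84.7 ± 2.42 and 83.4 ± 8.57, and Hmgb1 at 46.0 ± 4.76 and 34.9 ± 6.75 (limma adjusted p 0.192, 0.871 and 0.133).

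The ligand genes of PD-1, CTLA-4, BTLA and CD160, named after their values were seen, did not pass by limma. Cd274, which encodes PD-L1, was at 32.0, 25.5 and 22.2 FPKM in controls and at 29.0, 17.3 and 18.5 in ultrasound 1, 2 and 3 (limma adjusted p 0.349). Pdcd1lg2, which encodes PD-L2, was at 2.19 ± 0.670 and 2.53 ± 0.261 FPKM (SD, n = 3 each; limma adjusted p 0.515). Cd80 was at 1.73, 0.847 and 0.864 FPKM in controls and at 2.81, 2.50 and 2.16 in ultrasound libraries, with no overlap (log2 change 0.72, limma adjusted p 0.0572). In the authors' deposited DESeq2 values Cd80 has q 0.0354, where 12.3% of all 17744 genes have q under 0.05. Cd86 was at 10.8 ± 2.0 and 13.5 ± 1.75 FPKM and Tnfrsf14, which encodes HVEM, at 21.9 ± 3.11 and 25.5 ± 1.24 (SD, n = 3 each; limma adjusted p 0.203 and 0.239).

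Receptors that share these ligands, among them stimulatory ones, form a list of 4. All 4 were tested, 2 fell and 2 did not pass, where 1.56% of all genes tested fell. Cd28, which binds the same ligands as CTLA-4, was at 64.5, 69.9 and 56.7 FPKM in controls and at 35.1, 19.5 and 18.2 in ultrasound 1, 2 and 3 (log2 change -1.41, standard error 0.242, limma adjusted p 0.0311). Cd226, which binds the same ligand as TIGIT, was at 22.9, 25.3 and 23.8 FPKM and at 13.4, 11.2 and 8.96 (log2 change -1.05, standard error 0.142, limma adjusted p 0.0297). In both genes every ultrasound library, lay under every control, and ultrasound 1 alone differed from the control mean by -0.84 and -0.80. Cd96, a further receptor for PVR, was at 69.9 ± 4.29 and 61.2 ± 13.8 FPKM and Cd2, which binds CD48 as 2B4 does, at 268 ± 10.6 and 282 ± 45.9 (SD, n = 3 each; limma adjusted p 0.387 and 0.758).

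Levels within a library can be set against each other per ligand. The ratio of Ctla4 to Cd28 FPKM was 1.33, 1.27 and 1.44 in controls, 2.19 in ultrasound 1 and 0.737 and 0.865 in ultrasound 2 and 3, so ultrasound libraries lay on both sides of the controls. The ratio of Tigit to Cd226 was 0.906, 0.760 and 0.563 in controls and 1.70, 1.11 and 1.22 in ultrasound 1, 2 and 3. Here all ultrasound libraries were above all controls, although Tigit itself was not. Against Cd96 the ratio of Tigit was 0.195 to 0.313 in controls and 0.469, 0.165 and 0.184 in ultrasound libraries, which overlap the controls. The ratio of Cd244a to Cd2 was 0.016, 0.007 and 0.006 in controls and 0.032, 0.022 and 0.028 in ultrasound libraries. These 4 ratios were computed after the values were seen and were not tested.

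**Figure D4:**
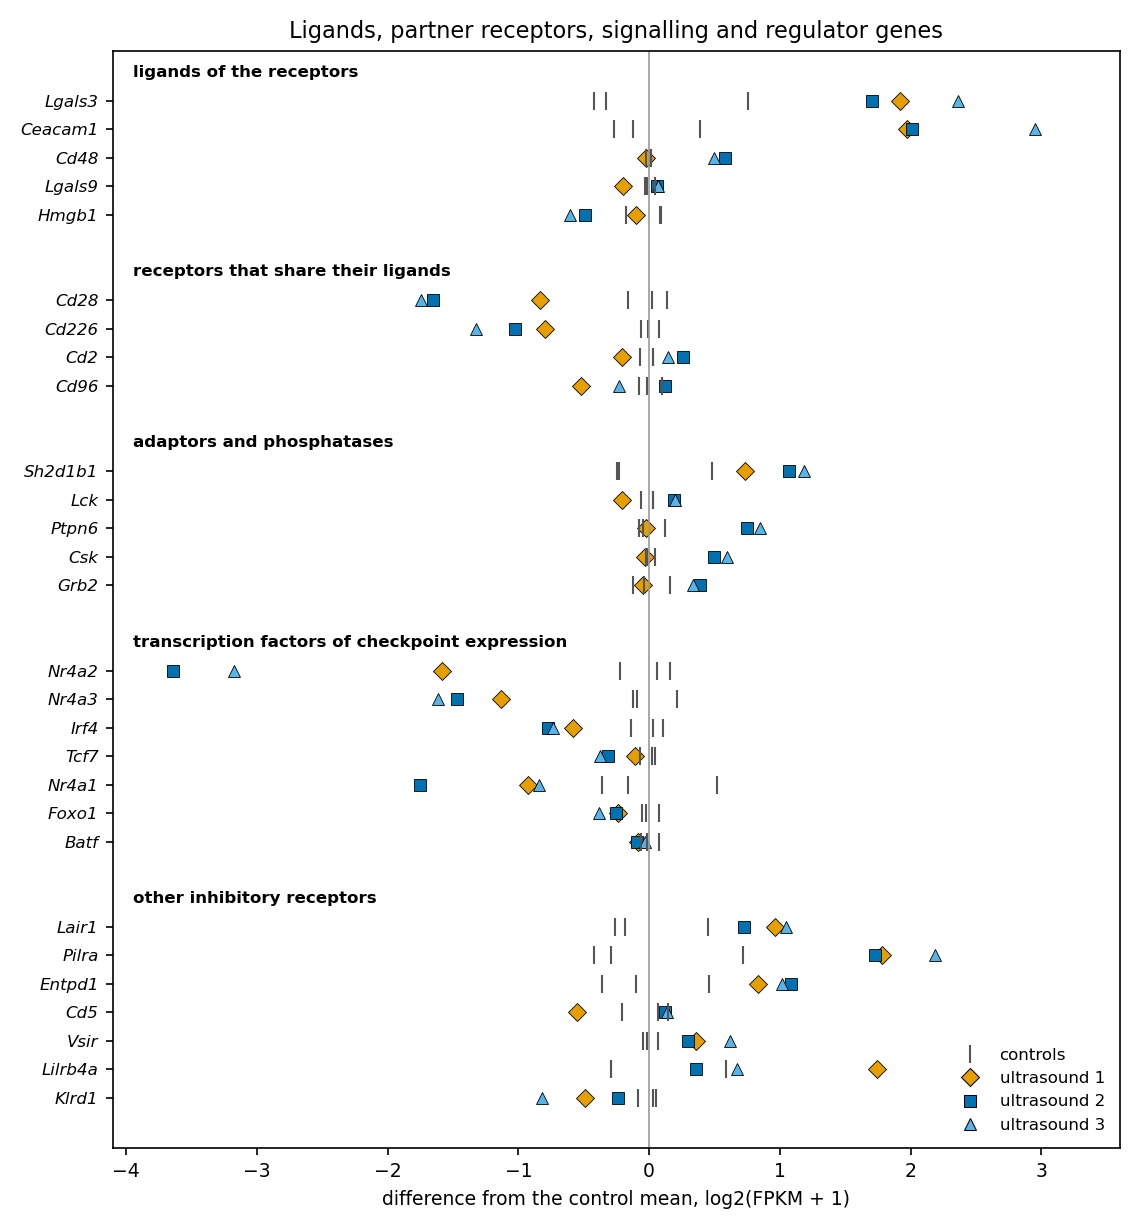
Difference of each ultrasound library from the control mean, on the log2(FPKM + 1) scale, for ligands, partner receptors, adaptors, transcription factors and other inhibitory receptors named by the rule, with the 3 controls as grey ticks. Cd28, Cd226, Nr4a2, Nr4a3 and Irf4 lie left of all controls in all ultrasound libraries, and Ceacam1, Lgals3, Pilra, Lair1 and Entpd1 lie right of them.

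Downstream of the receptors, 11 of 12 adaptors, kinases and phosphatases are in the table and all 11 were tested: 1 rose, 0 fell and 10 did not pass (median log2 change 0.06 against 0.087 over all genes). That count is near the background of 8.11% of all genes called and is no result about the list. The gene that rose was Sh2d1b1, which encodes EAT-2, an adaptor of 2B4 in NK and myeloid cells, at 2.58, 1.19 and 1.17 FPKM in controls and 3.27, 4.41 and 4.85 in ultrasound libraries (log2 change 0.997, limma adjusted p 0.0475). Its call was lost with median-of-ratios size factors (limma adjusted p 0.0681) and with voom (0.0652). Sh2d1a, which encodes SAP, the adaptor of 2B4 in T cells, was at 35.1 ± 1.13 and 29.4 ± 5.84 FPKM and did not pass (limma adjusted p 0.248; named after its values were seen). Ptpn6, the phosphatase SHP-1, was at 170, 151 and 148 FPKM in controls and at 153, 262 and 281 in ultrasound 1, 2 and 3, and Csk at 91.0, 87.1 and 86.6 and at 86.3, 125 and 134. In both, ultrasound 2 and 3 were high, and ultrasound 1 was among the controls for Ptpn6 and just under the lowest of them for Csk (limma adjusted p 0.173 and 0.195). Lck and Grb2 had limma adjusted p of 0.762 and 0.302.

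Of 15 transcription factors known to act on checkpoint gene expression, all tested, 3 fell, 0 rose and 12 did not pass, where 1.56% of all genes tested fell. The median log2 change was -0.30 against 0.087 over all genes, and 8 of 15 lay under every control in all ultrasound libraries, against 8.96% of all genes. Nr4a2 was at 21.6, 28.5 and 26.5 FPKM in controls and at 7.79, 1.11 and 1.92 in ultrasound 1, 2 and 3 (log2 change -2.80, limma adjusted p 0.0311). Nr4a3, of the same family of T cell receptor-induced nuclear receptors, went from 7.22 ± 1.1 to 2.12 ± 0.548 FPKM (SD, n = 3 each; log2 change -1.40, limma adjusted p 0.0297), and Irf4 from 25.3 ± 2.26 to 15.2 ± 1.15 (log2 change -0.70, limma adjusted p 0.0304). For ultrasound 1 alone the difference from the control mean was -1.58 for Nr4a2, -1.13 for Nr4a3 and -0.58 for Irf4. Nr4a1, Tcf7 and Foxo1 also lay under every control in all ultrasound libraries but did not pass (limma adjusted p 0.0660, 0.134 and 0.0802). Tox, a factor of exhausted T cells named after its values were seen, was at 19.3 ± 2.72 and 13.0 ± 2.07 FPKM (limma adjusted p 0.0694), and Batf at 40.7 ± 2.02 and 38.7 ± 0.918 (0.547).

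Of 14 other inhibitory receptors, all tested, 3 rose, 0 fell and 11 did not pass, where 6.55% of all genes tested rose (2.75% with median-of-ratios size factors). The median log2 change was 0.38 against 0.087 over all genes. The 3 were Pilra, from 7.33 ± 3.89 to 28.4 ± 5.34 FPKM (log2 change 1.90, limma adjusted p 0.0304), Lair1, from 5.05 ± 1.74 to 10.1 ± 1.25 (0.91, 0.0458), and the ectonucleotidase Entpd1, also called CD39, from 3.95 ± 1.5 to 8.51 ± 0.840 (0.98, 0.0433; SD, n = 3 each). Pilra and Lair1 are known from myeloid cells. All 3 had their highest control value in control 1, as the myeloid markers did, and so did Lag3, Tigit, Cd160 and Btla. Lair1 and Entpd1 lost their call with median-of-ratios size factors (limma adjusted p 0.0721 and 0.0622) and with voom (0.0662 and 0.0543), whereas Pilra kept it in both. Of the abundant receptors of the list, Vsir (VISTA) was at 72.9 to 78.8 FPKM in controls and 92.7 to 116 in ultrasound libraries (limma adjusted p 0.0594), and Klrd1 at 62.2 to 68.4 and 36.9 to 55.7 (0.0799). Cd5 was at 118 ± 14.9 and 112 ± 28.2 FPKM and Lilrb4a at 42.5 ± 16.4 and 85.3 ± 46.1, the latter with 138 in ultrasound 1 (limma adjusted p 0.760 and 0.166).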

How the data were processed

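Splenic CD8 T cell RNA-seq libraries were compared, 3 control and 3 focused ultrasound, grouped by their titles. HISAT2, HTSeq, DESeq2, R 3.2.0 and build mm10 are named in the submitters' processing notes, without roles. FPKM values per gene and library were made by the authors, per the file headers. The deposited table also holds a signal column set, group means of DESeq2 normalized counts, and the authors' fold change (a ratio), log2 fold change, p-value and q-value, per the file headers.

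Genes with FPKM of at least 1 in 3 or more libraries were tested on log2(FPKM + 1) values, a scale that understates changes of low genes, using limma 3.58.1 under R 4.3.3 with its trend and robust options. Two-sided p-values were adjusted by Benjamini-Hochberg over all 10655 genes, and 0.05 was the threshold. Whole reads were recovered from FPKM and group means: 100% of 52694 values under 500 reads lay within 0.05 of a whole number, and simulated data over 4000 genes gave 100%. The limma step was tested on simulated data of the 3 against 3 comparison with 2-fold changes. At dispersion 0.01 it found 100% of 200 changed genes among 10577 and made 20 false calls, and at dispersion 0.05 it found 57.8% of 199 among 10551 and made 5. The simulated libraries shared the same dispersion and none stood apart, whereas ultrasound 2 and 3 do here. The simulation therefore does not show how limma behaves with such libraries.

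The members, lists and motifs were chosen with earlier results of these data known. Named are the 8 members, called list genes, the 4 most abundant genes per list, and the 2 genes most like each member with mean FPKM of at least 5. Others are marked as named after their values were seen, apart from the markers Cd4 and Foxp3, the full NK cell list and the overlapping gene Pdzk1. Lists of CD8 T, B, NK, myeloid, neutrophil, dendritic, CD4 and regulatory T, gamma delta T and erythroid cells served as markers. Of the gamma delta list 2 of 9 genes are in the table, at 1.34 FPKM or less in sum. The 7 erythroid markers summed to 83.2 to 133 FPKM in controls and 55.3 to 112 in ultrasound libraries. Positions come from GENCODE M21 on GRCm38 and promoter windows from RefSeq on GRCm38.p6. The alternatives tried were other size factors, other filters, another pseudocount, a non-robust fit, voom on recovered reads, a replicate block, a term for ultrasound 2 and 3 (so that only ultrasound 1 is set against the controls), another threshold, the authors' values and each library left out. Python 3.11.15, numpy 2.4.6, pandas 2.3.3 and matplotlib 3.10.9 did the rest.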

Additional observations from a re-analysis of the deposited data

How the results depend on the processing

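Over all genes, 864 passed (698 higher and 166 lower). Without a filter 0 passed (4216 at an unadjusted p under 0.05), with median-of-ratios size factors 437 (293 higher and 144 lower), with voom on recovered reads 563 (353 higher and 210 lower), 150 with a term for ultrasound 2 and 3 (ultrasound 1 alone against the controls, assumed to vary like the other libraries), 1962 at adjusted p under 0.1, and 2179 in the authors' deposited values. Leaving out each library gave 0 to 5727, with 5727 without ultrasound 1 and 0 by limma without control 2, control 3, ultrasound 2 or ultrasound 3 (1962 to 2154 at an unadjusted p under 0.05). The cause was not tested.

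Of the checkpoint receptors 2 passed. By limma 0 passed without a filter and with median-of-ratios size factors (3 in each at an unadjusted p under 0.05), and with a term for ultrasound 2 and 3 again 0 (2 unadjusted). Leaving out each library gave 0 to 3. Of the partner list genes 11 passed; without a filter 0 did (22 unadjusted), against 6 with a term for ultrasound 2 and 3, 17 at adjusted p under 0.1, 20 in the authors' deposited table, and 0 to 38 with one library left out.

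The log2 changes of Havcr2 and Cd244a that lost their call were 1.18 and 1.33 without a filter, 1.09 and 1.24 with median-of-ratios size factors and 1.17 and 1.32 with a term for ultrasound 2 and 3. Leaving out each library gave 0.96 to 1.46 and 1.15 to 1.63 for these, -2.43 to -1.26 for Ctla4, -0.048 to 0.061 for Pdcd1 and -0.070 to 0.071 for Btla.

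Directions reversed only for genes that had not passed. With median-of-ratios size factors these were Pdcd1 (-0.091), Cd2 (-0.042) and Lck (-0.046), with upper-quartile factors Pdcd1 (-0.081), Cd2 (-0.032) and Lck (-0.035), with voom Pdcd1 (-0.097), Cd2 (-0.040) and Lck (-0.043), and in the authors' deposited table Pdcd1 (-0.12), Cd2 (-0.051) and Lck (-0.055). With a term for ultrasound 2 and 3 they were Tigit (0.36), Cd160 (-0.12), Btla (0.052), Cd48 (-0.027), Cd2 (-0.21), Lck (-0.21), Ptpn6 (-0.026), Csk (-0.032), Grb2 (-0.045) and Cd274 (0.14). Leaving out one library gave Lgals9 -0.071 to 0.061, Cd2 -0.034 to 0.20, Lck -0.0091 to 0.19 and Cd5 -0.21 to 0.13. The 11 called list genes kept their direction in all 176 of their alternative values.

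Libraries that share a replicate number share only that number: their deviations from the group means had correlations of -0.041, 0.051 and 0.058, and control 2 was closest to ultrasound 1 (0.131) rather than to its own number. With the replicate block 0 genes passed (3249 at an unadjusted p under 0.05), 0 checkpoint receptors (3) and 0 partner list genes (24), and Havcr2 (1.18) and Cd244a (1.33) were at limma adjusted p 0.0870 and 0.0862.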
